A study of Homo sapiens with 3 samples.

Results

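The comparison described here set MDA-MB-231 cells transfected with the small interfering RNA (siRNA) siTMPO-AS1 #1 against the same cells transfected with control siRNA (siControl), on 1 expression array each. These were 2 of the 3 arrays of the study, taken by their titles, and the third held cells given another siRNA against the same transcript, siTMPO-AS1 #2. MDA-MB-231 is an established human triple-negative breast cancer line of mesenchymal type. All cells were exposed to siRNA for 48 hours, and 150 ng of total RNA from each sample went into the labelling. Whether the samples were grown as separate cultures is not stated. A log2 ratio below is the log2 signal with siTMPO-AS1 #1 minus that with siControl, unless siTMPO-AS1 #2 is named, and no group had a replicate array. The ratios therefore have no test and no error, and genes are described by size only. Each gene was represented by its brightest probe set, and 16808 of 33616 genes had a mean log2 signal over the 3 arrays that reached 4.42, the median over all gene means. Only these are counted. Just inside that limit lay CHRNB4 (log2 ratio -0.15) and RUNDC3A-AS1 (-0.43), and just outside it CDH9 (-0.07) and CRYGS (0.30).

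The TMPO-AS1 gene yields a long non-coding transcript from the strand opposite to TMPO, which encodes lamina-associated polypeptides of the nuclear envelope. An siRNA guides the cell's Argonaute proteins to RNAs with a matching sequence, which are then cleaved, and partial matches of its seed can lower further transcripts. In breast cancer cells, DNA replication genes are driven by E2F transcription factors as cells enter S phase, mitotic genes are switched on later in the cycle, and adhesion and inflammatory genes follow YAP, TGF-beta and NF-kB signalling.

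The response to siTMPO-AS1 #1 was lopsided: large differences were almost all decreases of signal, and they lay among bright protein-coding genes. At 1.5-fold, 2791 genes (16.6%) stood higher than in siControl and 3158 (18.8%) lower. Among protein-coding genes alone the shares were 16.8% higher and 23.7% lower. Over all counted genes, a 2-fold limit left 923 higher (5.49%) and 1671 lower (9.94%). A 4-fold limit left 57 and 450, and an 8-fold limit 9 (0.0535%) and 126 (0.75%). Past 16-fold there was 1 gene higher and 27 lower. With siTMPO-AS1 #2, which shares the control array, 2705 genes (16.1%) were higher and 1754 (10.4%) lower at 1.5-fold. Past 2-fold it had 773 higher (4.6%) and 644 lower (3.83%). At 8-fold that siRNA had 4 higher (0.0238%) and 9 lower (0.0535%). The log2 ratio over all genes had a median of 0.02 and an SD of 0.80, against a median of 0.09 and an SD of 0.59 with siTMPO-AS1 #2. The middle of the distribution was therefore almost at 0, while its lowest percentile reached -2.75 and its highest 1.57.

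**Figure D1:**
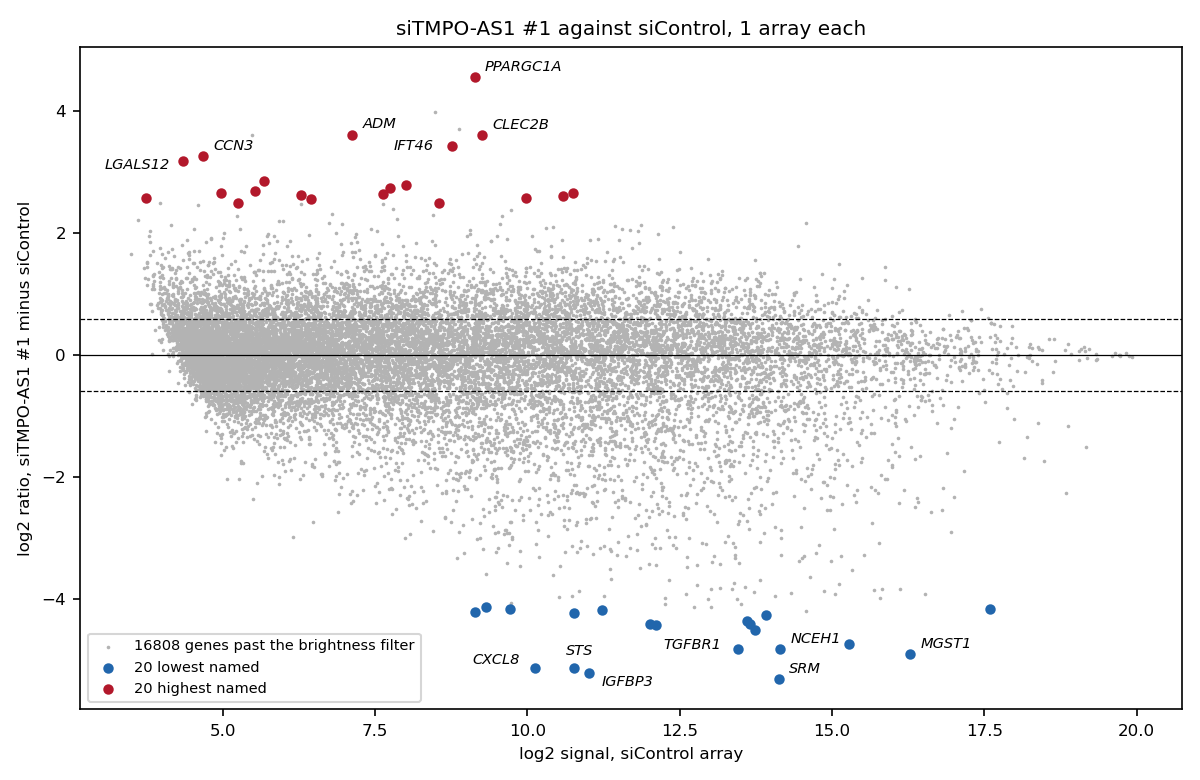
Log2 ratio of siTMPO-AS1 #1 to siControl (vertical axis) against the log2 signal on the siControl array (horizontal axis), 1 point per gene, with dashed lines at 1.5-fold. The 20 lowest named genes, from -5.31 to -4.13, had siControl signals of 9.13 to 17.60, whereas the 20 highest named genes had siControl signals of 3.74 to 10.74.

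The 126 genes at least 8-fold lower were well expressed on both other arrays. Their median log2 signal was 12.52 with siControl, 8.93 with siTMPO-AS1 #1 and 12.39 with siTMPO-AS1 #2, and the median ratios of the 2 siRNAs were -3.46 and 0.09. Of the 126, 116 were protein-coding and 7 were pseudogenes, where all 16808 counted genes held 10973 and 4088. Protein-coding genes were also brighter than pseudogenes (median signal 8.99 and 6.23), and the part of brightness in these counts was not tested. Sorted by mean signal into 5 bins of equal size, the counted genes held 0, 0, 17, 52 and 57 of the 126 from the dimmest bin to the brightest. The siControl signal of a gene limits how far below it another array can lie, so the dim bins could show few such genes. The SD of the ratio was 0.55 in the dimmest bin, 0.99 in the bin next to the brightest and 0.92 in the brightest. The 57 genes at least 4-fold higher were dimmer, with medians of 7.63 with siControl, 10.10 with siTMPO-AS1 #1 and 8.53 with siTMPO-AS1 #2.

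**Figure D2:**
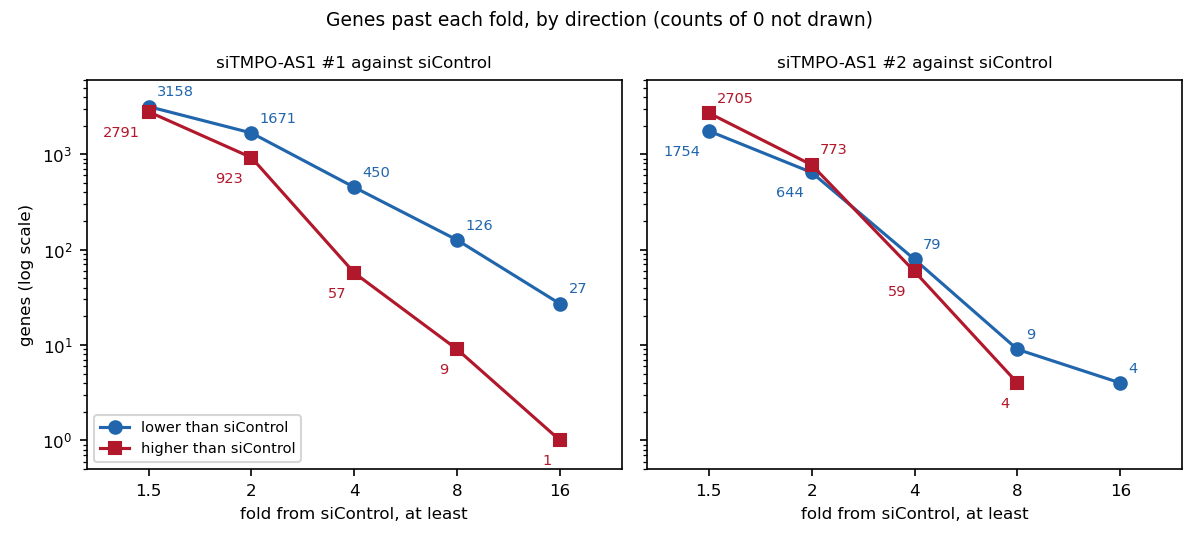
Number of genes (log scale) at least 1.5-, 2-, 4-, 8- and 16-fold from siControl, by direction, for siTMPO-AS1 #1 (left) and siTMPO-AS1 #2 (right). With siTMPO-AS1 #1 the counts of lower and higher genes part from 3158 and 2791 at 1.5-fold to 126 and 9 at 8-fold, and a count of 0 is not drawn.

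The targeted transcript itself gave little signal. TMPO-AS1 had a log2 signal of 4.83 with siControl, 4.37 with siTMPO-AS1 #1 and 4.28 with siTMPO-AS1 #2. Its ratio of -0.46 was smaller than the SD over all genes, and the signal with siTMPO-AS1 #1 lay under the brightness limit, so the array is a weak check of the knockdown. TMPO had 14.28, 13.39 and 13.76 on the same arrays. Its ratio of -0.89 corresponds to a 1.85-fold lower signal.

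The lowest ratios belonged to genes of unlike functions. SRM, spermidine synthase of the polyamine pathway, had a log2 signal of 14.13 with siControl, 8.82 with siTMPO-AS1 #1 and 14.15 with siTMPO-AS1 #2. Its signal was thus 39.7-fold lower with siTMPO-AS1 #1, and within 0.02 on the log2 scale of siControl with siTMPO-AS1 #2. IGFBP3, a secreted carrier of insulin-like growth factors, had 11.01, 5.79 and 11.56 (37.2-fold lower with siTMPO-AS1 #1). STS, the steroid sulfatase that frees estrogen and androgen precursors, had 10.77, 5.64 and 10.39. CXCL8, a chemokine that attracts neutrophils, had 10.13, 5.0 and 10.01 (34.9-fold lower). In all of these, the siTMPO-AS1 #1 array alone was low.

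MGST1, a membrane glutathione transferase, had 16.28 with siControl, 11.38 with siTMPO-AS1 #1 and 17.14 with siTMPO-AS1 #2, a 29.9-fold lower signal with siTMPO-AS1 #1. The mean over all its probe sets gave a ratio of -2.33 in place of -4.90. The list of NRF2 and glutathione genes that holds it had 6 higher and 6 lower of 32 (median 0.02). DEGS1, which introduces the double bond of ceramide, had 15.27, 10.54 and 15.36. NCEH1, a cholesterol ester hydrolase, had a ratio of -4.82, B4GALT6, which makes lactosylceramide, -4.13, and the thioesterase gene LYPLA1, whose product removes palmitate from proteins, -4.41. PAPSS2, which makes the sulfate donor, had -4.17, and GLCE, an epimerase of heparan sulfate, -4.23. ANXA1, a membrane-binding annexin, was among the brightest genes of the arrays and had 17.60, 13.43 and 18.12 (18-fold lower). LOX, which cross-links collagen, had 12.10, 7.67 and 13.45, so that it was lowest with siTMPO-AS1 #1 and highest with siTMPO-AS1 #2. The other named genes of the lowest 20 were TGFBR1, MTPN, PSMD5, RTCA, RBM3, CAMK4 and DYNLT3, with ratios of -4.81 to -4.18. They act in TGF-beta reception, actin capping, proteasome assembly, RNA end processing, the cold response, calcium signalling and dynein transport. Except for TGFBR1 (-1.80), these 20 genes had ratios with siTMPO-AS1 #2 between -0.50 and 1.35.

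**Figure D3:**
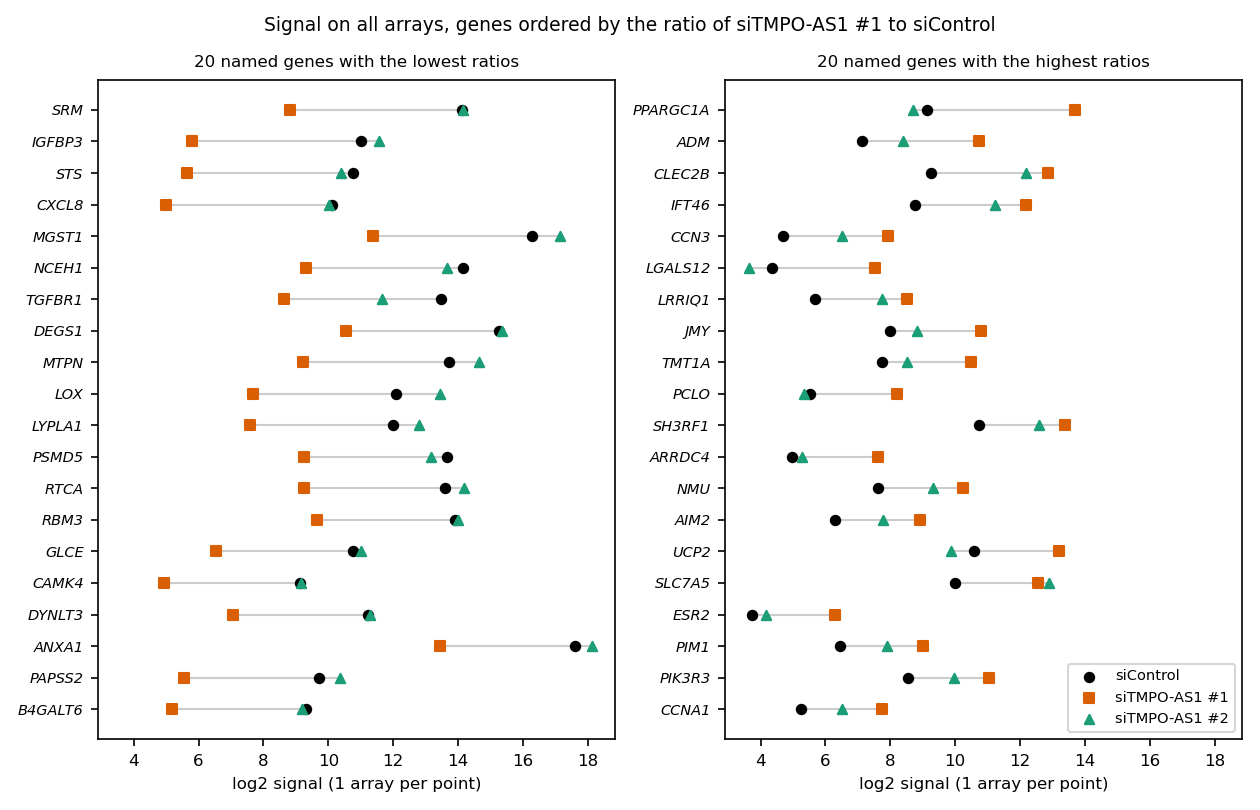
Log2 signal on the 3 arrays (circles siControl, squares siTMPO-AS1 #1, triangles siTMPO-AS1 #2) for the 20 named genes with the lowest (left) and highest (right) ratio of siTMPO-AS1 #1 to siControl. On the left the siControl and siTMPO-AS1 #2 points lie together for most genes, as for SRM (14.13 and 14.15), with siTMPO-AS1 #1 far to the left at 8.82.

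Probe sets named for pseudogenes of 2 of these genes were low as well, and other probe sets of low genes were low in part. LYPLA1P3 had a ratio of -4.14 beside -4.41 for LYPLA1, and DYNLT3P2 had -3.47 beside -4.18 for DYNLT3. Both pseudogenes were named after their values were seen, and their probe sets may capture RNA of the parent genes. Among genes at least 4-fold lower, 20 had a second probe set past the brightness limit. That second probe set lay below siControl in 14 of 20, was at least 1.5-fold lower in 9 and at least 4-fold lower in 0, with a median ratio of -0.50. Over the 646 genes with a second such probe set, the ratios of the 2 probe sets differed by a median of 0.47. The brightest probe set was used for each gene, and the second can cover another part of the transcript.

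The highest ratio belonged to PPARGC1A, a coactivator that drives mitochondrial biogenesis. It had a log2 signal of 9.13 with siControl, 13.68 with siTMPO-AS1 #1 and 8.68 with siTMPO-AS1 #2, and so was 23.4-fold higher with siTMPO-AS1 #1 alone. UCP2, a carrier of the mitochondrial inner membrane, had 10.59, 13.19 and 9.86. LGALS12, a galectin, had 4.35, 7.53 and 3.63. PCLO, a scaffold protein of nerve endings, had 5.53, 8.21 and 5.34, and ESR2, estrogen receptor beta, had 3.74, 6.31 and 4.17. LGALS12 and ESR2 lay under the brightness limit of 4.42 on both other arrays. They were thus counted only through their signal with siTMPO-AS1 #1, and their pattern follows from the filter. For UCP2 and PCLO too the siTMPO-AS1 #1 array stood alone, whereas most other high genes were also raised on the siTMPO-AS1 #2 array, to differing extents. ADM, a vasodilator peptide, had 7.12, 10.73 and 8.38. The ratios with siTMPO-AS1 #1 and then siTMPO-AS1 #2 were 2.61 and 1.47 for the DNA sensor gene AIM2, the survival kinase gene PIM1 had 2.55 and 1.43, and PIK3R3, a regulatory subunit of PI3-kinase, had 2.49 and 1.43. JMY, a nucleator of actin and cofactor of p53, had 2.78 and 0.81, the methyltransferase gene TMT1A 2.73 and 0.78, and NMU, neuromedin U, 2.63 and 1.67.

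Genes that start and carry out DNA replication stood lower as a group. The promoters of CDC6, GINS1 and MCM6 are shown. These genes were taken for their low ratios from the origin genes whose promoters hold the motif of E2F factors. Each is the RefSeq sequence of GRCh38.p14 from 250 bases before to 50 after the gene's start, 5′ to 3′ on the gene's strand, with the motif in capitals (TTTCCCGC or TTTGGCGC, both strands searched). CDC6 lies at chr17:40287629-40287928 (plus strand), GINS1 at chr20:25407423-25407722 (plus strand) and MCM6 at chr2:135876394-135876693 (minus strand, 2 matches).
CDC6: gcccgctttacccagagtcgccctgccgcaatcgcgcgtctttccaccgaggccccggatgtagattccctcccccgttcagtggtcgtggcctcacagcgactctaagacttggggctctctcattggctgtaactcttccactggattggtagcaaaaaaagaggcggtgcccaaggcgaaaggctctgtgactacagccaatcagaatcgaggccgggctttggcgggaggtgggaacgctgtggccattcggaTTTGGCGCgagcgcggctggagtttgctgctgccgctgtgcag
GINS1: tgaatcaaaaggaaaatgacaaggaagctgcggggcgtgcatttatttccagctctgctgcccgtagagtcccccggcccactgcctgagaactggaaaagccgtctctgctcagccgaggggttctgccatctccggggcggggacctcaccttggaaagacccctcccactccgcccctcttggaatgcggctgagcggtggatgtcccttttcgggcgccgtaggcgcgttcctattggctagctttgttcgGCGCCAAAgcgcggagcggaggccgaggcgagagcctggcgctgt
MCM6: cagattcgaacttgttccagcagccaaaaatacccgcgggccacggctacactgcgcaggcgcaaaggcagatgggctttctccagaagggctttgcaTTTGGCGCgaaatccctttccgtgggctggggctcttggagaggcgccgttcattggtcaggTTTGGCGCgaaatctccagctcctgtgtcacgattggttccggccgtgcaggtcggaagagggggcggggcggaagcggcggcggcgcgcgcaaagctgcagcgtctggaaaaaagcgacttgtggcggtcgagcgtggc
The motif was found in 11 of 23 promoters of origin genes and in 9 of 28 of fork genes, against 2.75% of 27305 promoters in all and 4.44% of those of genes past the brightness limit. Over origin and fork genes together, the median ratio was -1.03 in the 20 with the motif and -0.79 in the 31 without it. The difference between these medians was not tested. Replication genes are known to be driven by E2F factors, so the motif counts are no independent evidence about them. A match is a description of the letters and does not show binding.

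Of 27 genes of origin licensing and firing past the brightness limit (29 listed), 18 were at least 1.5-fold lower and 0 higher, with a median ratio of -0.88 (-0.26 with siTMPO-AS1 #2). CDC6, which loads the replicative helicase, had 13.16 with siControl, 9.74 with siTMPO-AS1 #1 and 12.56 with siTMPO-AS1 #2 (10.7-fold lower with siTMPO-AS1 #1). GINS1, a subunit of the active helicase, had 11.69, 8.52 and 12.07 (8.99-fold lower). The helicase subunit gene MCM4 had 11.08, 9.56 and 11.03. With siTMPO-AS1 #2 the ratios of GINS1 and MCM4 were 0.38 and -0.06, while CDC6 was 1.52-fold lower, just past the 1.5-fold limit. MCM6, another subunit of the helicase, had 8.39, 6.94 and 6.94, so that it lay lower with both siRNAs. ORC6, of the origin recognition complex, had a ratio of -1.88. The highest member was DBF4, the activator of the CDC7 kinase, at 0.53. In bulk RNA, fewer cells in S phase and less RNA per cell cannot be told apart.

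Of 34 genes of the replication fork (36 listed), 22 were at least 1.5-fold lower and 0 higher, with a median of -0.99 (-0.24 with siTMPO-AS1 #2). RFC3, of the clamp loader, had 12.28, 9.93 and 12.21, and a ratio of -1.37 in place of -2.35 with the mean over its probe sets. DSCC1, of the alternative loader, had 8.02, 5.67 and 8.32. PCNA, the sliding clamp, had 14, 13.06 and 13.86, a 1.91-fold lower signal with siTMPO-AS1 #1. ATAD5, of the complex that unloads the clamp, had a ratio of -2.05, whereas the polymerase subunit genes POLD2 (0.28) and POLE4 (0.36) lay above siControl. Of 23 nucleotide synthesis genes 10 were lower and 1 higher (median -0.39). Among them were CTPS1, which makes CTP (-1.78), and the thymidylate synthase gene TYMS (-0.96), and the 1 higher was IMPDH2 of guanine synthesis (1.43).

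Regulators of S phase entry were mixed. Of 15 G1/S cyclins, kinases and inhibitors, 6 were lower and 4 higher (median -0.47). CCNE2, an activating cyclin of CDK2, had 11.36, 7.86 and 10.97 (11.4-fold lower), and the phosphatase gene CDC25A had 8.77, 6.75 and 8.45 (4.07-fold lower). The kinase gene CDK4 stood at 1.05 and the inhibitor gene CDKN1B at 0.65. Of 17 E2F and pocket protein genes 6 were lower and 1 higher (median -0.49). RBL1, a pocket protein that represses E2F targets, had 14.51, 11.18 and 13.46 (10.1-fold lower), the repressor E2F4 had -1.66, and RB1 itself had 0.63. Of 36 replication-dependent histone genes (44 listed), 22 were lower and 0 higher, with a median of -0.70 (-0.34 with siTMPO-AS1 #2). Histone genes are near-identical copies, so their probe sets may share signal. H2BC14 had -2.03, H2BC8 -1.76 and H2AC11 -1.63.

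Mitotic kinases, cyclins and kinesins lay mostly within 1.5-fold of siControl, whereas kinetochore genes were lower in larger numbers. The cell cycle homology region motif TTTGAA was searched in the same windows on both strands and is shown in capitals for CDK1 (chr10:60778081-60778380) and PLK1 (chr16:23678639-23678938), both on the plus strand, whose ratios were far apart.
CDK1: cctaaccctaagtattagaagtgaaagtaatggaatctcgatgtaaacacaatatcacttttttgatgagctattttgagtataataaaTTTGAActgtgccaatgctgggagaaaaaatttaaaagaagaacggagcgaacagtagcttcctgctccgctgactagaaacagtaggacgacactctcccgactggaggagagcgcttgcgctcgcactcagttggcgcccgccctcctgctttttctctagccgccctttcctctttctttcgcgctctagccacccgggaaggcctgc
PLK1: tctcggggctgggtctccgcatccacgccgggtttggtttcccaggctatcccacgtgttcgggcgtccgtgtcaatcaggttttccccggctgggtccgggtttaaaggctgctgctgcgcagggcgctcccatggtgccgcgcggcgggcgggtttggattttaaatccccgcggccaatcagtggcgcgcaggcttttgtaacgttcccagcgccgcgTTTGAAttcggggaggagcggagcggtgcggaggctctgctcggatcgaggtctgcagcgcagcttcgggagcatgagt
It occurred in 17 of 24 promoters of mitotic kinases and cyclins, 9 of 13 of kinesins and 15 of 27 of kinetochore genes. The shares were 18.2% of all promoters and 14.8% of those of genes past the brightness limit. The motif is known from cell cycle genes, so these counts too are no independent evidence about them. Of 32 mitotic kinases, cyclins and checkpoint genes, 6 were lower and 3 higher (median -0.21, and -0.27 with siTMPO-AS1 #2). CDK1, the kinase that drives mitosis, had 13.31, 11 and 13.27 (4.97-fold lower with siTMPO-AS1 #1). MAD2L1, of the spindle checkpoint, had 10.86, 7.70 and 9.31. PLK1, a kinase of spindle assembly, had a ratio of -0.37, AURKA -0.24, CCNB1 0.13, CCNB2 0.65, the chromosomal passenger gene CDCA8 0.91 and its partner BIRC5 1.14. Members of this list thus ran from -3.16 to 1.14. Of 13 kinesins 4 were lower and 1 higher (median -0.06). Of 32 kinetochore, condensin and cohesin genes 14 were lower (43.8%) and 2 higher (median -0.43). CENPU of the centromere had 13.41, 10.08 and 12.48, and the condensin gene NCAPH 13.25, 10.18 and 12.80.

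DNA repair lists differed in their counts. Of 23 homologous recombination and Fanconi genes 11 were lower (47.8%) and 2 higher, with a median of -0.56 (-0.26 with siTMPO-AS1 #2). XRCC2, which repairs DNA double-strand breaks, had 12.20, 9.64 and 10.98. BRCA1 had 8.90, 6.90 and 8.04, a 4-fold lower signal with siTMPO-AS1 #1. The recombination helicase gene BLM had a ratio of -2.26, while RAD50 had 0.66. Mismatch repair and checkpoint kinase genes were split, with 3 lower and 3 higher of 15 (median -0.34), from CHEK1 at -2.33 to PMS2 at 0.95. DNA methylation genes had 4 lower (28.6%, against 23.7% of protein-coding genes) and 0 higher of 14 (median -0.40). TDG, a base excision glycosylase, had -2.80 and the maintenance methyltransferase gene DNMT1 -1.87.

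**Figure D4:**
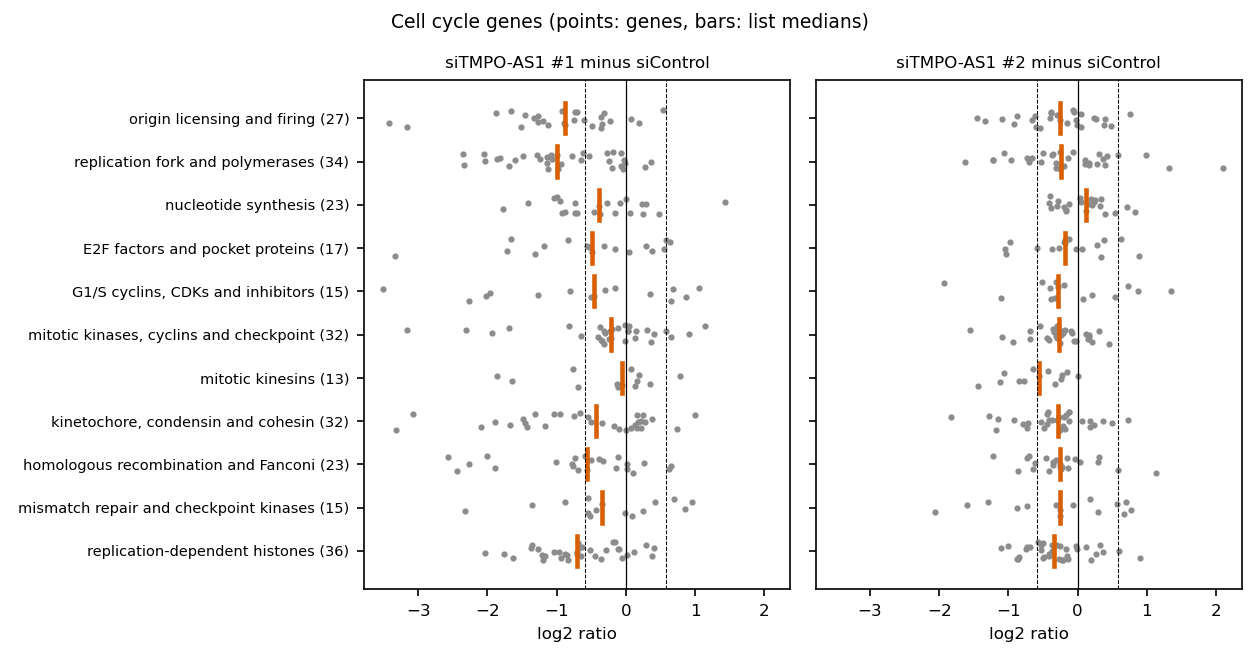
Log2 ratio to siControl of each cell cycle gene past the brightness limit (points) with the list median (bars), for siTMPO-AS1 #1 (left) and siTMPO-AS1 #2 (right), and dashed lines at 1.5-fold. With siTMPO-AS1 #1 the origin (-0.88), fork (-0.99) and histone (-0.70) medians lie past the line, and the kinesin median lies at -0.06.

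Integrins, the receptors that hold cells to the matrix, stood lower as a group. Of 11 past the brightness limit (15 listed), 7 were at least 1.5-fold lower and 0 higher, with a median ratio of -1.0 (0.05 with siTMPO-AS1 #2). ITGA2, of the collagen receptor, had 14.64 with siControl, 11 with siTMPO-AS1 #1 and 14.05 with siTMPO-AS1 #2 (12.5-fold lower with siTMPO-AS1 #1). ITGAV, of the vitronectin receptors, had 12.11, 8.66 and 12.26 (10.9-fold lower). The laminin receptor subunit gene ITGA6 had 15.64, 13.47 and 15.68. Their shared partner ITGB1 had a ratio of -0.16, with a siControl signal of 18.37. Matrix genes were lower in 9 (36%, against 23.7% of protein-coding genes) and higher in 2 of 25 (median -0.34). Next to LOX were COL6A3 (-2.99), a collagen VI chain, and THBS1 (-1.70), thrombospondin. TNC, tenascin C, stood at 0.89. Matrix proteases and their regulators were lower in 9 and higher in 3 of 19 (median -0.38). PLAU, the urokinase activator of plasminogen, had -2.24, its receptor gene PLAUR -1.64 and the sheddase gene ADAM10 -1.86, while TIMP3, a protease inhibitor, had 0.82.

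The YAP and TEAD pathway, which reads cell tension and contact, was lower in 16 and higher in 3 of 28 genes, with a median of -0.72 (0.24 with siTMPO-AS1 #2). YAP1, the coactivator itself, had 10.93, 8.63 and 10.57 (4.94-fold lower with siTMPO-AS1 #1). Its target CCN2, a matricellular protein, had 10.17, 7.30 and 11.74. F3, tissue factor, had 15.03, 12.17 and 16.31. For CCN2 and F3 the arrays of the 2 siRNAs lay on opposite sides of siControl. The target ANKRD1 had 0.62 and the upstream kinase gene LATS2 1.16, both above siControl. Actin genes had 11 lower and 6 higher of 46, and 8 lower and 2 higher at 2-fold, with a median of -0.05. Their lower share at 1.5-fold (23.9%) was near that of protein-coding genes (23.7%). Actin genes ran from CAPZA1, an actin capping subunit (-3.75), to ARPC3, of the Arp2/3 nucleator (1.54). With siTMPO-AS1 #2 these 2 genes had -3.46 and 1.82.

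Growth factor and TGF-beta signalling genes went both ways, with a few adaptors far below siControl. GRB2, which links receptors to RAS, had 12.96 with siControl, 8.97 with siTMPO-AS1 #1 and 13.07 with siTMPO-AS1 #2 (15.9-fold lower with siTMPO-AS1 #1). PTPN11, the phosphatase SHP2 of the same step, had 14.06, 11.24 and 14.39 (7.06-fold lower). The other RAS to ERK genes ran from -1.26 (SHC1) to 0.72 (SOS1), and the list of 15 had 5 lower, 3 higher and a median of -0.11. ERK feedback genes were lower in 6 (26.1%, near the 23.7% of protein-coding genes) and higher in 2 of 23 (median -0.31). SPRY4, a feedback inhibitor of receptor signalling, had 10.32, 8.59 and 11.55. DUSP6, the ERK phosphatase, had 13.40, 12.30 and 13.77. EPHA2, a receptor kinase, was the highest member at 1.85. Receptor tyrosine kinases had 4 lower and 6 higher of 20 (median -0.01), from AXL (-1.27) and MET (-0.91) to ERBB2 (2.38-fold higher) and EPHA2. Of 22 TGF-beta ligands, receptors and SMADs, 9 were lower and 6 higher (median -0.30, and -0.26 with siTMPO-AS1 #2). The receptor genes TGFBR1 and TGFBR2 had -4.81 and -1.78. SKIL, a SMAD repressor, had -2.48 and SMAD4, the common SMAD, -1.35, while the activin receptor genes ACVR2B and ACVR1B had 1.39 and 1.35. Genes responsive to TGF-beta were lower in 4 (26.7%) and higher in 0 of 15, where 23.7% of protein-coding genes were lower. Their median was -0.22 (0.28 with siTMPO-AS1 #2), with PMEPA1 at -2.71 and TGFBI at -2.49. In the BMP branch 5 of 14 were lower and 0 higher (median -0.41), with SMAD5, a BMP signal carrier, at 16.62, 14.04 and 16.35.

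NF-kB genes stood lower with siTMPO-AS1 #1. CXCL8 is the best known of their inflammatory outputs and lies at chr4:73740319-73740618 (plus strand), and its promoter is shown with the kB motif in capitals. The letters searched on both strands were GGAATTTCC, GGACTTTCC, GGGATTTCC and GGAATTCCC.
CXCL8: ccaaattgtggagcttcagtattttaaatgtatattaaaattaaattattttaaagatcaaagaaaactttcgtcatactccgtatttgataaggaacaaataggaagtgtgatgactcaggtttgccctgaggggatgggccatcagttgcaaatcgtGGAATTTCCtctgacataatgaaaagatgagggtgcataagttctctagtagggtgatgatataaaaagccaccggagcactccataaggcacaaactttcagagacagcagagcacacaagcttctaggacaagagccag
They occurred in 9 of 22 promoters of NF-kB genes and 3 of 10 of chemokine and cytokine genes. The shares were 1.75% of all promoters and 2.04% of those of genes past the brightness limit. The NF-kB list includes genes chosen as its targets, and the letters were shortened after a first search. The motif counts are therefore no independent evidence about these genes. Of 25 NF-kB subunits, regulators and targets, 13 were lower and 1 higher, with a median of -0.65 (0.02 with siTMPO-AS1 #2). SOD2, the mitochondrial superoxide dismutase, had 9.87, 7.49 and 10.30 (5.21-fold lower). NFKBIA, the inhibitor that NF-kB itself induces, had 11.08, 9.94 and 11.17. TAB2, an adaptor of the upstream kinase, was the 1 higher gene at 1.35. RELA and NFKB1, the main subunits, had -0.42 and -0.15. Chemokines and cytokines were lower in 6 and higher in 0 of 14 (median -0.39), of 28 listed. CSF1, the macrophage growth factor, had 16.44, 14.78 and 15.89. IL6 had -0.27, and CCL2, a monocyte chemokine, had 0.01.

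Ligands read by natural killer cells were lower in part, and antigen presentation genes were not lower more often than genes in all. Of 16 ligands of natural killer cell receptors and checkpoint receptors, 7 were lower (43.8%) and 2 higher (median -0.47, and 0.30 with siTMPO-AS1 #2). NECTIN2, a ligand of DNAM-1 and TIGIT, had 12.26, 8.28 and 11.64 (15.8-fold lower). MICB, a stress ligand of NKG2D, had 14.41, 12.47 and 14.67. The checkpoint ligand gene PDCD1LG2 had -1.60, and CLEC2B, a ligand of NKp80, was the highest member at 3.6 (2.93 with siTMPO-AS1 #2). PDIA3, which folds MHC class I, had 14.97, 12.67 and 14.84, with 3 lower (16.7%, against 18.8% of all genes) and 0 higher among 18 presentation genes (median -0.21). Interferon response genes had 9 higher and 6 lower of 37 (median 0.26, and 0.05 with siTMPO-AS1 #2). IFI6, an interferon-induced mitochondrial protein, had 1.48, ISG15, a ubiquitin-like modifier, -0.04, and the factor gene IRF1 -2.21. Sensors of double-stranded RNA were split, with 4 lower and 4 higher of 15 (median -0.24). Their adaptor gene MAVS had -1.93 (-1.30 with the mean over its probe sets), and IFIH1, which encodes a sensor, 0.83.

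Survival genes were lower, and death genes were mixed. Of 10 anti-apoptotic genes 6 were lower and 1 higher, with a median of -0.80 (-0.19 with siTMPO-AS1 #2). XIAP, a caspase inhibitor, had 10.01, 8.28 and 9.83, and BIRC2, a ubiquitin ligase of the same family, had 12.10, 10.43 and 13.01. MCL1 and BCL2L1 had -0.40 and -0.34. Of 23 caspases, death receptors and adaptors 9 were lower and 8 higher (median -0.39). The lowest were XAF1 (-3.24, and -2.64 with siTMPO-AS1 #2), TNFRSF21 (-1.88 and 0.56) and TNFSF10 (-1.48 and -2.03). TNFRSF10D, a decoy receptor of TRAIL, had 9.06, 11.10 and 9.17 (4.11-fold higher). CASP8, the initiator caspase, had 10.98, 12.56 and 10.91 (2.99-fold higher). BCL2L11, which encodes BIM, had 9.18, 10.79 and 9.32 (3.06-fold higher). In these 3 genes only the siTMPO-AS1 #1 array was high. Pro-apoptotic BCL2 family genes had 3 higher and 2 lower of 12 (median 0.15), with BID at -1.53. Of 25 p53 genes 7 were lower (28%) and 5 higher (20%), with a median of -0.19. Among protein-coding genes these shares were 23.7% and 16.8%. The lowest were MDM2 at -3.30 and CCNG1 at -2.59 (-1.29 and -2.30 with siTMPO-AS1 #2). PMAIP1 was the highest at 1.43 (1.17 with siTMPO-AS1 #2). CDKN1A, the p53-induced CDK inhibitor, had -0.51, and RPS27L, another p53 target, 1.13.

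Endoplasmic reticulum and sterol genes lay lower in part. Of 23 unfolded protein response genes 11 were lower and 1 higher, with a median of -0.56 (-0.07 with siTMPO-AS1 #2). HSPA5, the chaperone BiP, had 16.71, 15.60 and 16.64. The chaperone genes DNAJB11 and HYOU1 had -1.73 and -1.55 (-0.79 and -0.84 with the mean over their probe sets), and HERPUD1, of protein degradation, was the 1 higher gene at 1.11. Of 21 cholesterol synthesis genes 11 were lower and 2 higher, with a median of -0.63 (0.20 with siTMPO-AS1 #2). HMGCS1, an early enzyme of the pathway, had 13.41, 11.09 and 13.92, and MSMO1, a later one, had 18.85, 16.59 and 19.10. Both were lowest with siTMPO-AS1 #1. SCAP, the escort of the SREBP factors, had 1.38 but 0.20, short of 1.5-fold, with the mean over its probe sets, and SREBF2, which encodes such a factor, -1.17. Fatty acid synthesis genes had 6 lower and 3 higher of 13 (median -0.49), with FASN at -1.64 and ACSL1 at 1.44. ATF4 targets had 7 lower and 1 higher of 21 (median -0.11). SLC7A11, the cystine importer, had 12.21, 10.47 and 13.12.

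Glycolysis and complex I genes were more often higher than lower. Of 21 glycolysis genes 8 were higher (38.1%, against 16.6% of all genes) and 1 lower, with a median of 0.38 (0.27 with siTMPO-AS1 #2). PDK1, which holds back pyruvate oxidation, had 12.21, 13.27 and 12.54, and HK2, a hexokinase, had 7.32, 8.12 and 7.47. The 1 lower gene was the glucose transporter gene SLC2A3, with 12.04, 8.94 and 13.08 (8.56-fold lower). Of 32 complex I genes 9 were higher (28.1%) and 2 lower (median 0.36). Of 34 genes of complexes II to V 7 were higher (20.6%) and 3 lower (median 0.30), a share nearer to that of all genes. With siTMPO-AS1 #2 these medians were 0.39 and 0.42. NDUFA5 had a ratio of 1.75, whereas NDUFB6 (12.45, 10.50 and 12.82) and the succinate dehydrogenase subunit gene SDHD (11.60, 9.26 and 12.10) were low with siTMPO-AS1 #1 alone. Next to PPARGC1A, its partner NRF1 had -1.04 and GABPA, another factor of nuclear genes for mitochondria, 1.03. Import and biogenesis genes had 7 higher (22.6%) and 3 lower of 31 (median 0.14), and mitochondrial ribosomal protein genes 12 higher (22.6%) and 6 lower of 53 (median 0.22). Autophagy and lysosome genes had 11 higher and 5 lower of 33, with a median of 0.39 (0.40 with siTMPO-AS1 #2). ATG14, which starts autophagosome formation, had 10.22, 11.73 and 10.01, and WIPI1, of the same step, -2.39.

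Cytosolic ribosomal protein genes had 2 higher and 3 lower of 38 (median 0.07), proteasome subunits 3 and 5 of 28 (0.11) and splicing factors 2 and 8 of 38 (-0.07). Among splicing factors TRA2B had 14.98, 13.46 and 15.08. Aminoacyl-tRNA synthetases had 2 higher and 1 lower of 18. Nuclear pore genes had 5 higher and 9 lower (24.3%, against 23.7% of protein-coding genes) of 37 (median -0.27). NUP43, of the Y-shaped scaffold complex, had 12.26, 8.19 and 11.97 (16.9-fold lower). Nuclear lamina genes, among them TMPO, had 0 higher and 4 lower (30.8%) of 13 (median -0.09), with the lamin B receptor gene LBR at 13.82, 11.81 and 13.01. Genes of RNA interference itself had 3 higher and 2 lower of 12 (median 0.22), with AGO2, the slicing Argonaute, at 0.37 and DICER1 at -1.40.

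**Figure D5:**
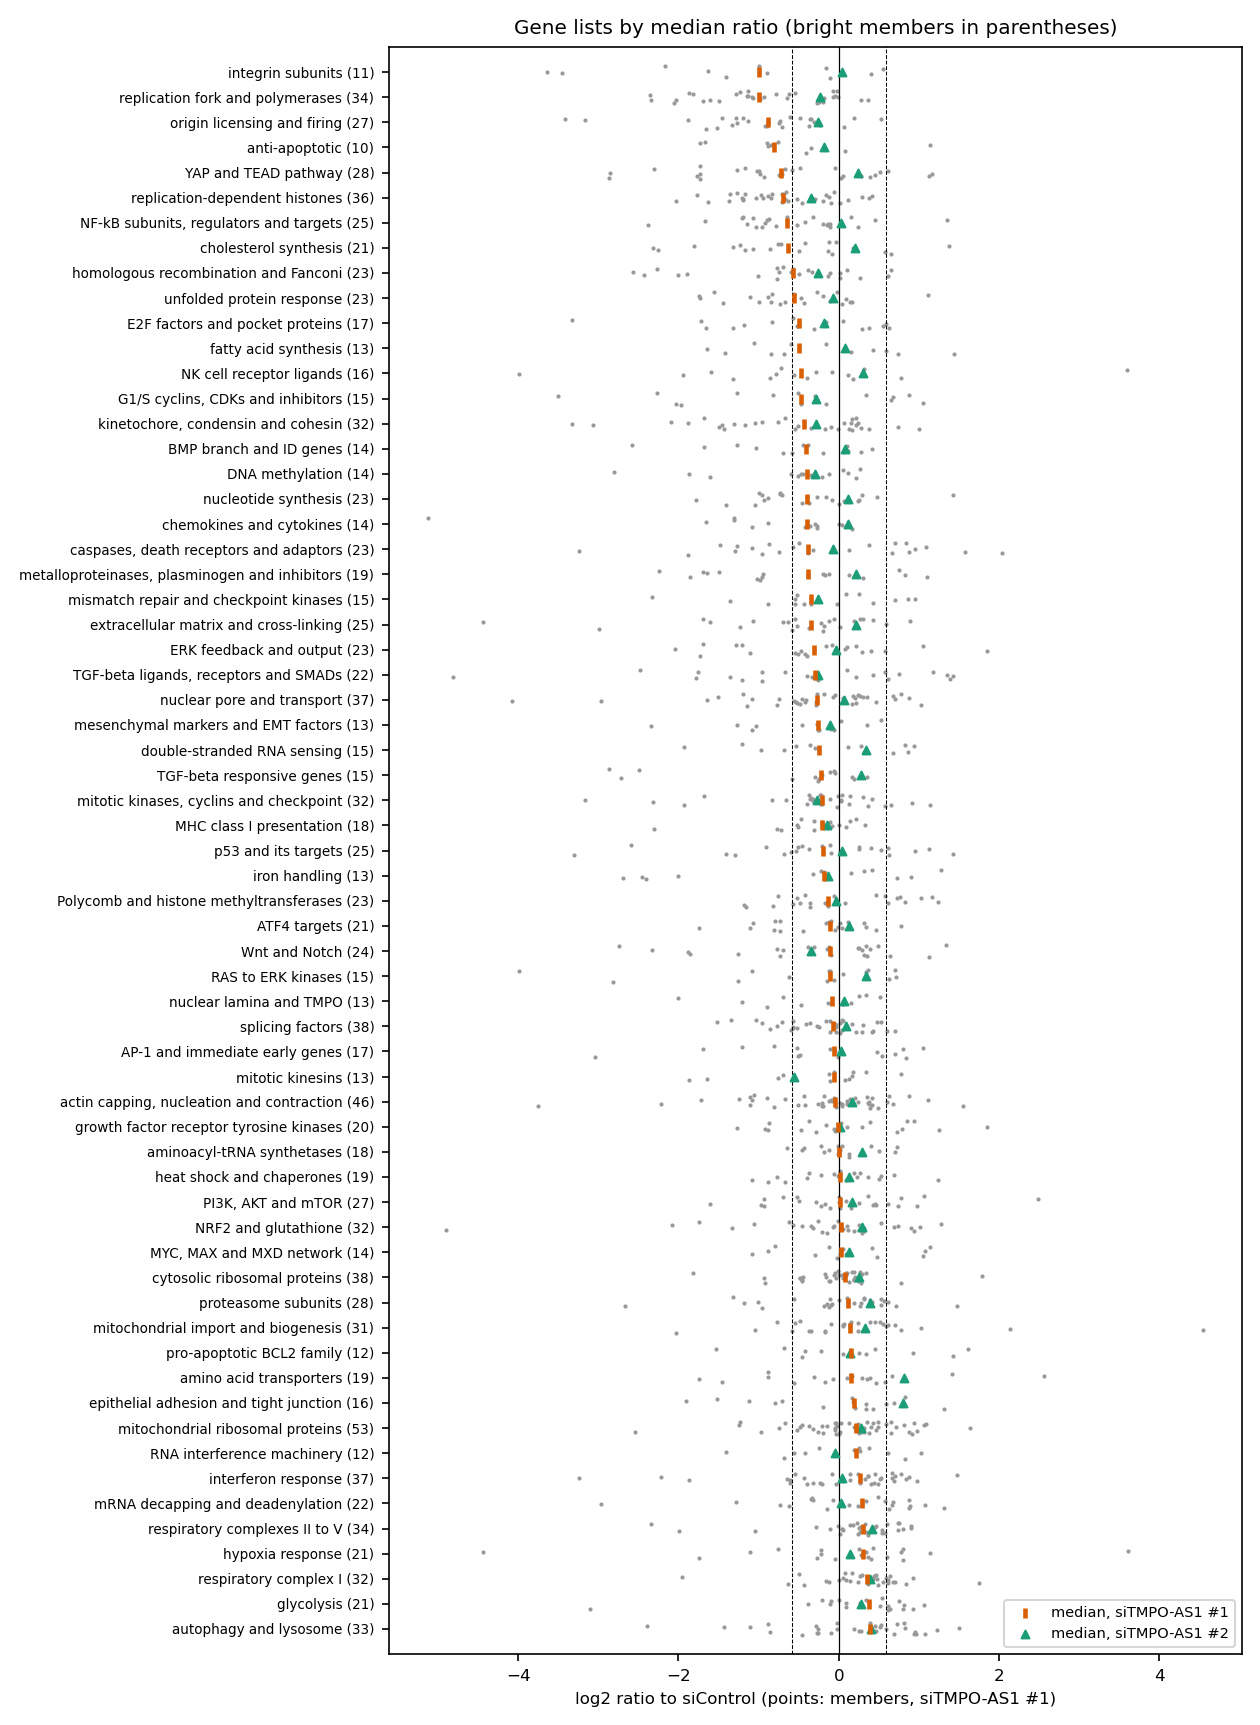
Log2 ratio to siControl of the members of each pathway list past the brightness limit (points, siTMPO-AS1 #1), with the list medians for siTMPO-AS1 #1 (bars) and siTMPO-AS1 #2 (triangles), ordered by the former. Medians run from -1.0 (integrins) to 0.39 (autophagy) with siTMPO-AS1 #1, and the triangles of integrins (0.05), YAP (0.24) and cholesterol synthesis (0.20) lie right of their bars.

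RNA classes differed in which direction their calls lay. Of 10973 protein-coding genes 23.7% were at least 1.5-fold lower and 16.8% higher (median -0.04). Of 4088 pseudogenes 8.15% were lower and 16.3% higher (median 0.13), and of 751 long non-coding RNAs 15.2% and 17.6% (median 0.04). Small nuclear RNAs were higher in part: of 37, 16 were higher and 0 lower, with a median of 0.56 (0.09 with siTMPO-AS1 #2). Some of these genes are near-identical copies whose probe sets may share signal, so they are not all separate measurements. Of 128 small nucleolar RNAs 29 were higher and 8 lower (median 0.15). Pseudogenes (median signal 6.23) were dimmer than protein-coding genes (8.99), and the part of brightness in this contrast was not tested.

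The arrays were checked against markers of the line and of other cells. Of the markers of mesenchymal breast lines, VIM (16.52), CAV1 (15.47) and CD44 (13.70) were bright with siControl, and the hormone receptor genes ESR1 (3.34) and PGR (3.55) and the E-cadherin gene CDH1 (3.64) lay below the array's median of 3.73. Other luminal markers were bright, among them KRT8 (14.82), EPCAM (10.92) and XBP1 (10.16), and 13 of 17 with a value passed the brightness limit. Of 12 markers of MDA-MB-231 and similar lines 8 were lower with siTMPO-AS1 #1 and 0 higher (median -1.17), while VIM (-0.24) and CD44 (-0.28) stayed close to siControl. A separate list of mesenchymal markers and factors of epithelial-mesenchymal transition had 4 lower and 0 higher of 13 (median -0.26). That lower share was 30.8%, against 23.7% of protein-coding genes. Luminal markers had 4 lower and 3 higher of 13 (median 0.17). Of the markers of other cells with a value, 4 of 9 of fibroblasts, 3 of 11 of immune cells, 3 of 8 of endothelium and 4 of 6 of myoepithelium passed the brightness limit. The immune list held CD68, a lysosomal protein of macrophages, at 11.14 with siControl and 12.32 with siTMPO-AS1 #1 (ratio 1.18), and the myoepithelial list MYLK, myosin light chain kinase, at 9.56 and 9.02. PECAM1 of endothelium (3.83), CD3E of T cells (3.88) and the myoepithelial keratin gene KRT5 (2.72), chosen after their values were seen, were dim with siControl. Of 11 reference genes, used to normalise other assays, 3 were lower and 1 higher (median 0.02): HPRT1 had 10.97, 8.28 and 11.36, and TFRC and TBP had -2.46 (-1.33 with the mean over its probe sets) and -1.80, while PGK1 was the highest at 0.61. The 8 spiked control transcripts, of labelling and of hybridization, had ratios of 0.04 to 0.20 with siTMPO-AS1 #1, and the medians of the arrays were 3.73 to 3.75. On any array 442 counted genes had values above 16, more than a 16-bit scan can hold on a plain log2 scale, so folds are those of the deposited scale.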

How the data were processed

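RNA of 3 samples of MDA-MB-231 cells was measured on 1 Affymetrix array each. The deposited log2 signals, 1 per probe set and array, were made by the authors with RMA and Expression Console of Affymetrix, as listed per the submitters' processing notes. Software versions, annotation and genome build were not given in the sources used here. RMA includes quantile normalization, which fixes the distribution of signals and hides a general shift. The values were used as deposited.

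Of 138745 probe sets, 36176 had exactly 1 symbol in the platform annotation and 1119 had several, which were left out. Gene identifiers matched 25516 of these in a RefSeq gene table (GRCh38.p14), and 0 symbols changed. The brightest probe set stood for each gene. Arrays have no read depth, and their number limits the precision. With 1 array per group no test was run, and a call means at least 1.5-fold. Scripts used Python 3.11.15, numpy 2.4.6, pandas 2.3.3, statsmodels 0.14.6 and matplotlib 3.10.9, and were tested on simulated data.

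Named genes are TMPO-AS1, TMPO, the 20 highest and 20 lowest genes, key members of 70 lists and each list's 3 highest and 3 lowest members. Pseudogenes and symbols that start with LOC, LINC or MIR or contain a period are counted, not ranked. The rule also left out symbols ending in P and digits, which was applied only to genes not typed protein-coding, so that IGFBP3 and UCP2 were kept, a departure made after values were seen. The lists held 1711 genes, of which 1555 had a value and 1401 were counted. Members and lists were chosen with earlier results of these data known, and the kB letters were shortened after a first search. Alternatives were no filter or a stricter filter on dim genes, means over probe sets, brightness from the arrays compared only, centring, loess, protein-coding genes only and leaving out values above 16.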

Additional observations from a re-analysis of the deposited data

Results flagged for a closer look

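Probe sets with no gene symbol were not used in any comparison, and some of them stood as far from siControl as the named genes. Of 98455 such probe sets 27340 passed the brightness limit. With siTMPO-AS1 #1, 16 were at least 8-fold lower and 7 at least 8-fold higher than with siControl (0.0585% and 0.0256%). The lowest log2 ratio was -5.11, for a probe set with 16.17 with siControl, 11.06 with siTMPO-AS1 #1 and 14.14 with siTMPO-AS1 #2. The highest was 5.31, with 8.61, 13.92 and 10.25. Another probe set had the same values on every array, so the 7 higher ones may not all be separate measurements. At 1.5-fold 4227 were higher and 2837 lower, so that higher probe sets were in the majority there. There was no replicate array, and which transcripts they measure was not analysed here.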

How the results depend on the processing

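List medians kept their direction and size in 538 of 559 recalculations, ratios of named genes in 3923 of 3936, counts in 44 of 48 and medians of RNA classes in 40 of 49, where size means within the spread used for each. Most named genes had 1 probe set, and only centring and loess could change the ratio of such a gene. The 3923 kept ratios are therefore for the most part no check of the settings. The cause of the exceptions was not tested. TJP1, a tight junction gene, went from 0.69 to -0.50 with the mean over its probe sets, and 12 other named genes moved toward 0 under that setting, among them SKP2 to -1.52 and MSH6 to -0.58. Endothelial markers went from -0.67 to 0.37 with no filter. With no filter, integrins had a median of -0.71, protein-coding genes -0.023 and pseudogenes 0.059. A stricter filter, which keeps 8404 genes, left 1571 higher and 1980 lower at 1.5-fold and 535 higher at 2-fold (count of genes at least 2-fold higher, siTMPO-AS1 #1 against siControl), since fewer genes are counted. Its medians were -0.55 for nucleotide synthesis, -0.74 for homologous recombination and Fanconi, 0.036 for mismatch repair and checkpoint kinases, -0.81 for TGF-beta ligands, receptors and SMADs, -0.19 for the BMP branch, -1.0 for YAP, 0.25 for receptor tyrosine kinases, -0.12 for ERK feedback, -1.19 for chemokines and cytokines, -0.95 for NF-kB, -0.41 for p53, -0.44 for ATF4 targets, 0.49 for mRNA decapping, -0.54 for the myoepithelial and 1.18 for the immune markers, -0.026 for protein-coding genes, 0.21 for pseudogenes and 0.30 for small nucleolar RNAs. Means over probe sets gave -0.65 for matrix proteases and 0.15 for iron handling. Protein-coding genes and pseudogenes had -0.061 and 0.11 after centring, and -0.071 and 0.11 after loess. Protein-coding genes alone gave 1842 higher. Without genes above 16, matrix proteases had -0.66 and fatty acid synthesis -0.0033. Lower genes made up 53.1% of calls, and 51.9% to 58.6% over the alternatives. No paired analysis was possible because each group held 1 array, and no replicate could be left out. Signal over background limits dim genes such as TMPO-AS1, and values near the brightness limit cannot fall far.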

Other observations

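Iron, chromatin and developmental signalling genes were not part of the description above. Of 13 iron handling genes 4 were lower with siTMPO-AS1 #1 and 3 higher (median -0.19). The lowest were the metal transporter genes SLC39A8 (-2.69) and SLC39A14 (-2.40) and TFRC, the transferrin receptor (-2.46). With the mean over their probe sets SLC39A8 had -1.30 and TFRC -1.33. The high ones were HMOX1, heme oxygenase (1.28), FTL, ferritin light chain (0.90), and ACO1, the iron sensor (0.72). Of 23 Polycomb and histone methyltransferase genes 7 were higher and 4 lower (median -0.13). The demethylase genes KDM6B (1.24) and KDM5A (1.16) and the methyltransferase gene EZH2 (1.02) were highest, and the histone chaperone gene RBBP4 (-1.18) was lowest.

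In the Wnt and Notch list, of 24 genes 3 were higher and 8 lower (median -0.11). HES1, a Notch target, had -2.75 and the Wnt coreceptor gene LRP5 -2.33, while DKK1, a secreted Wnt inhibitor, had 1.34 (0.71 with the mean over its probe sets). RBPJ, the DNA-binding factor of Notch signalling, had a log2 signal of 13.79 with siControl, 14.92 with siTMPO-AS1 #1 and 11.02 with siTMPO-AS1 #2. The siRNA arrays thus lay on opposite sides of siControl. Of 22 mRNA decapping and deadenylation genes 8 were higher and 4 lower (median 0.29). They ran from the decapping enzyme gene DCP2 at -2.97 to the decapping activator gene DDX6 at 1.31. With siTMPO-AS1 #2 DCP2 had -2.45 and DDX6 0.37. The list of PI3K, AKT and mTOR genes, 27 in all, had a median of 0.02, with PIK3R3 at 2.49 and SESN3 at -1.60 (-0.80 with the mean over its probe sets).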
